A study of Macaca fascicularis and Mus musculus with 42 samples.

Results

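Primordial germ cell-like cells (PGCLC) of the cynomolgus monkey were compared between day 6 and day 4 of induction. The comparison took 8 of the 42 bulk RNA libraries of the study, of which 38 were from monkey. These were 5 libraries of day 6 and 3 of day 4, all labelled as sorted for both reporters of the embryonic stem cell line 656BTAG42, a tdTomato reporter of PRDM1 (also called Blimp1) and an EGFP reporter of TFAP2C. The cells had been grown as floating aggregates with EGF at 50 ng/mL, SCF at 100 ng/mL, BMP4 at 200 ng/mL, LIF at 1000 U/mL and the ROCK inhibitor Y27632 at 10 µM. The basal medium was GK15 (GMEM with 15% serum replacement) or aRB27 (Advanced RPMI1640 with the supplement B27). Day 4 had 2 aRB27 libraries and 1 GK15 library, and day 6 had 3 aRB27 libraries and 2 GK15 libraries. Another 3 of the 11 libraries labelled for this gate and these days were left out, because their labels were in doubt: GK15 day 4 library 2, GK15 day 6 library 2 and aRB27 day 6 library 2. PRDM1, whose reporter was sorted for, was listed at 0 in the library labelled GK15 day 4 library 2 and stood at 0.50 RPM in that labelled GK15 day 6 library 2, against 119.5 to 189.9 RPM in the 8 libraries used. In aRB27 day 6 library 2 it stood at 153.3 RPM, but the group of that library depends on how the column names are matched to the labels.

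Primordial germ cells are the founders of sperm and eggs. In primates, BMP4 drives pluripotent cells towards this fate through SOX17, TFAP2C and PRDM1, which switch on germ cell genes and hold back somatic ones, while POU5F1 and NANOG stay on and SOX2 is lost. Early germ cells then change their surface and adhesion proteins as they migrate, and they remodel histone and DNA methylation.

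Sequencing covered the 3′ ends of transcripts, and levels are RPM, the reads of a gene per 1 M reads of the library, as scaled by the authors. Depth was 1.61 to 6.0 M reads on day 4 and 1.51 to 4.80 M on day 6, which did not separate the days (exact permutation test within media, two-sided, p = 0.4, smallest possible 0.0333). The 10 most abundant genes took 6.30% to 6.95% of the reads on day 4 and 6.76% to 9.39% on day 6, and 8218 to 8544 genes reached 10 RPM on day 4 against 8154 to 8378 on day 6 (exact permutation test within media, p = 0.0667 for both). Their part in the RPM scale was not tested. The summed level of 8 germ cell markers was 3077 to 3856 RPM on day 4 and 2478 to 3968 RPM on day 6, against 94.5 to 272 RPM in the stem cells. PRDM1 and TFAP2C, whose reporters were sorted for, are among these markers, so the sums are not independent of the gate. Markers of other cell types were low: the sums of 8 endoderm markers were 26.8 to 39.2 RPM on day 4 and 6.03 to 18.8 RPM on day 6, those of 6 amnion markers 40.3 to 80.97 and 17.2 to 89.1 RPM, those of 8 stroma markers 45.5 to 80.9 and 30.5 to 51.6 RPM, and those of 6 blood and endothelium markers 17.5 to 28.8 and 6.66 to 21.8 RPM. AFP, GABRP and PTPRC were at 0 in all day 4 libraries, APOA2, TTR, VTCN1 and POSTN in all day 6 libraries, and GATA1 and HBZ on both days. The sum of 5 stem cell markers was 72.6 to 296 RPM on day 4 and 46.4 to 138 RPM on day 6, against 2832 to 4776 RPM in the stem cells. The part of these other cells in the results below was not tested. In bulk libraries, fewer cells of a type and less RNA per cell cannot be told apart. The labels do not say that the libraries were separate cultures, so p-values measure only the spread between these samples.

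A group of 3 day 6 libraries stood apart: aRB27 libraries 1 and 3 and GK15 library 1. Sample titles carry the code MS134 or MS162, whose meaning the labels do not give. All day 4 libraries carry MS162, these 3 libraries carry MS134 in at least 1 of the ways of matching columns to titles, and aRB27 library 4 and GK15 library 3 of day 6 carry MS162 in both. In the other matching, aRB27 library 3 and GK15 library 1 would also belong to a different line, 656BTAG63. Of 9148 genes tested, 44 were at least 2-fold lower in these 3 libraries than in each of the 5 others and 2 were at least 2-fold higher. Throughout, values are listed in the order aRB27 libraries 1 and 2 and the GK15 library for day 4, then aRB27 libraries 1, 3 and 4 and GK15 libraries 1 and 3 for day 6. CTNNB1, the WNT effector beta-catenin, stood at 274, 349 and 302 RPM on day 4 and 68.1, 53.9, 323, 64.5 and 236 RPM on day 6. HNRNPH1, a splicing factor, stood at 319, 307 and 323 RPM on day 4 and 35.97, 41.6, 325, 43.7 and 257 RPM on day 6. For both genes the 2 other day 6 libraries were at or near the day 4 level. Of the genes called below, 1 belongs to these 44, MAP1B.

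Each gene was tested with limma on log2(RPM + 1) with the medium as a term, over the 9148 genes that reached 10 RPM in 2 or more of the 8. Genes under 10 RPM in every library of a day passed this filter only through the other day. Of the genes named below, this holds among others for PGM5, SH2D4B and COL14A1, which rose, and for ITM2A, B2M and FOXA2, which fell. For such genes the filter and the call draw on the same values. Calls required a log2 difference, day 6 minus day 4, of at least 1 in size together with an adjusted p (Benjamini-Hochberg) under 0.05. On day 6, 107 genes (1.17% of those tested) differed by this rule: 52 rose (0.568%) and 55 fell (0.601%). The 5 day 6 and 3 day 4 libraries did not overlap at all for 48 of the 52 and 46 of the 55. Among all genes tested, 376 (4.11%) had every day 6 library above every day 4 library and 589 (6.44%) had every one below. Levels were modest: in 52 of the 107 genes the higher of the day means was under 50 RPM. The median log2 difference of all genes was -0.04. With median-of-ratios scaling 64 genes rose and 44 fell, so the share of rises was 59.3% instead of 48.6%.

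All 107 genes kept their sign in every alternative that gave a value. For the genes without overlap the choice fixes the sign in any subset of the libraries, so this is a description. Between the 2 day 6 libraries coded MS162 in both matchings and the 3 of day 4, all 49 rising and all 55 falling genes with a value kept their sign, with a median log2 of 1.26 against 1.46 with all libraries for the rises and -1.59 against -1.54 for the falls, and 45 of these 104 were still called. Between the 3 day 6 libraries that stood apart and day 4, which also chose the genes, the medians were 1.54 and -1.55. The counts depended on single libraries. They were 8 rises and 7 falls without the GK15 library of day 4, 16 and 7 without aRB27 day 4 library 2, 18 and 19 without aRB27 day 6 library 1, 28 and 26 without GK15 day 6 library 1, 30 and 35 without aRB27 day 6 library 3, 37 and 35 without aRB27 day 4 library 1, and 127 and 209 without aRB27 day 6 library 4. Of the 107, 10 were called whichever library was left out: DKK4, EPCAM, SRPX, SH2D4B, POLB and LOC102125667 (CYP4X1 in RefSeq) among the rises, and NES, B2M, KIF5C and CKB among the falls.

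**Figure D1:**
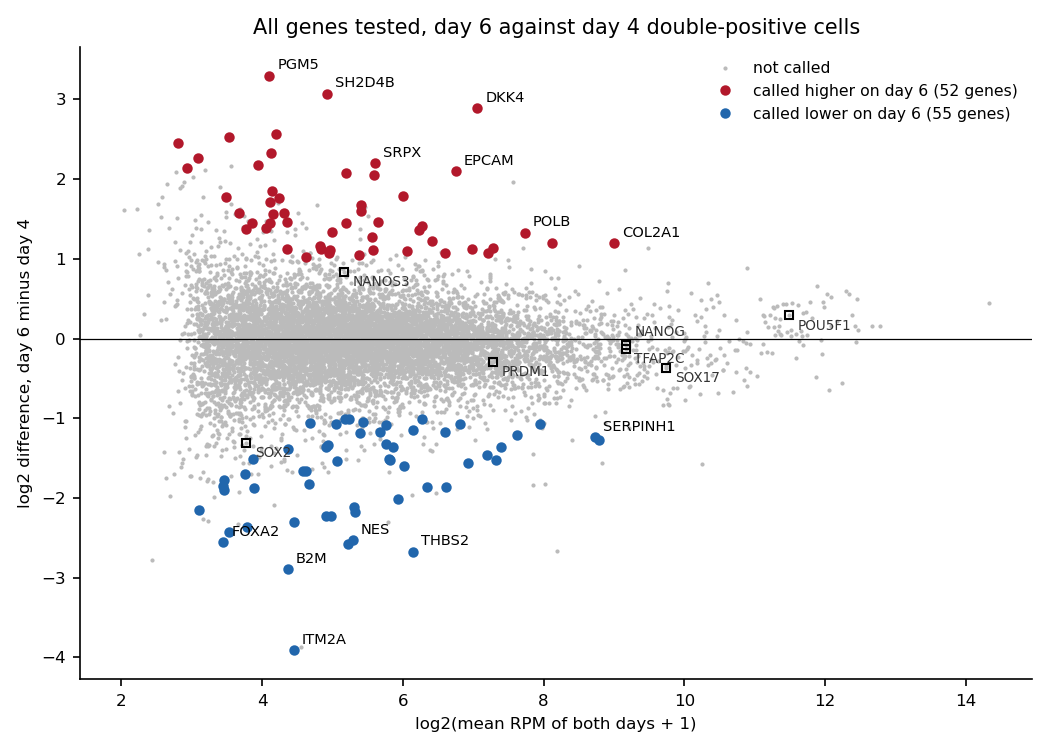
Each point is 1 of the 9148 genes tested, with log2(mean RPM of both days + 1) on the horizontal axis and the log2 difference, day 6 minus day 4, on the vertical axis; red points are the 52 genes that rose, blue points the 55 that fell, and open squares mark germ cell and pluripotency genes that were not called. The called genes lie on both sides of 0, with PGM5 and ITM2A at the ends, and the squares of PRDM1, TFAP2C, SOX17, POU5F1 and NANOG lie near 0. Cells of both days were sorted for reporters of PRDM1 and TFAP2C.

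The rise with the lowest adjusted p was that of DKK4, a secreted WNT inhibitor of the Dickkopf family. It stood at 32.2, 26.8 and 29.2 RPM on day 4 and 201, 187, 306, 153 and 323 RPM on day 6. The lowest day 6 library was thus far above the highest of day 4, from which the same direction in either medium and under either title code follows. The log2 difference, here and below with its standard error, was 2.90 ± 0.24 (limma, adjusted p = 0.000461). EPCAM, a surface adhesion protein by which primate PGCLC are often sorted, stood at 37.4, 23.7 and 51 RPM on day 4 and 175, 129, 83.4, 227 and 266 RPM on day 6. No day 6 library reached down to day 4, and aRB27 library 4 was the lowest of day 6. The log2 difference of EPCAM was 2.10 ± 0.24 (limma, adjusted p = 0.0013). SRPX, a protein with sushi repeats, stood at 19.6, 14.3 and 15 RPM on day 4 and 100.3, 90.9, 82.02, 74.95 and 45.8 RPM on day 6. Its groups were again separate, with the lowest day 6 value in GK15 library 3, and the log2 difference was 2.201 ± 0.21 (limma, adjusted p = 0.000809).

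PGM5, a phosphoglucomutase-like protein of cell adhesion sites, had the largest rise, 3.30 ± 0.46 on the log2 scale (limma, adjusted p = 0.00691). It stood at 1.73, 1.87 and 1.67 RPM on day 4 and 32.6, 16.4, 31.8, 60.4 and 11.5 RPM on day 6. Day 4 was low in every library, and on day 6 the values were spread widely within each medium. Without the GK15 library of day 4 its adjusted p was 0.0782. SH2D4B, which encodes a protein with an SH2 domain, stood at 4.03, 3.11 and 8.83 RPM on day 4 and 60.5, 49.3, 25.1, 67.5 and 63.3 RPM on day 6. The lowest day 6 value was in aRB27 library 4, and it too was above day 4, with a log2 difference of 3.07 ± 0.28 over all libraries (limma, adjusted p = 0.000683). POLB, the DNA polymerase of base excision repair, was more abundant, at 124, 149 and 93.3 RPM on day 4 and 333, 363, 299.7, 244 and 259.8 RPM on day 6. Each day 6 library was higher than each day 4 library, and the log2 difference was 1.33 ± 0.14 (limma, adjusted p = 0.0013).

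Other rises from low levels passed the same test. SCNN1A, a subunit of the epithelial sodium channel, stood at 1.15, 3.74 and 8.33 RPM on day 4 and 35.1, 44.6, 11.3, 17.9 and 41.6 RPM on day 6, with a log2 difference of 2.56 (limma, adjusted p = 0.0277). BHMT, which remakes methionine from homocysteine with betaine, stood at 1.15, 1.25 and 4.67 RPM on day 4 and 17.8, 7.62, 15.9, 26.2 and 26.5 RPM on day 6. DPEP2, a membrane dipeptidase, stood at 0.58, 1.25 and 1.67 RPM on day 4 and 8.89, 10.6, 16.5, 9.16 and 9.04 RPM on day 6. For each of these 3 genes every day 6 library was above its own day 4 libraries. The log2 differences were 2.53 for BHMT and 2.45 for DPEP2 (limma, adjusted p = 0.00691 and 0.0208). MYO6, an actin motor that walks towards the minus end, rose by 2.33 and MARCH4 (MARCHF4 in RefSeq), a membrane-bound ubiquitin ligase, by 2.27. OCLN, the tight junction protein occludin, rose by 2.14, from 0 to 4.50 RPM on day 4 to 7.28 to 17.5 RPM on day 6. With single libraries left out, OCLN and DPEP2 were each called in 1 of the 6 fits that gave a value, and MARCH4 in 3 of 8. OCLN, DPEP2 and MARCH4 had no value among the MS162 libraries. With the MS162 libraries alone in both matchings, SCNN1A, MYO6 and BHMT kept log2 differences of 2.05, 1.89 and 2.66 but were not called (limma, adjusted p = 0.0957, 0.119 and 0.0507).

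Collagen genes were among the rises. COL2A1, the chain of type II collagen, was the most abundant gene that rose, at 344, 303 and 272 RPM on day 4 and 795, 836, 497, 801 and 634 RPM on day 6. The groups did not overlap, and the lowest day 6 value was in aRB27 library 4. Its log2 difference was 1.201 ± 0.19 (limma, adjusted p = 0.0116), and 0.88 among the MS162 libraries, under the minimum size. COL2A1 was called 6 times of 8 with a library left out. COL14A1, a collagen that decorates fibrils, stood at 2.88, 3.11 and 5.17 RPM on day 4 and 15.7, 8.21, 18.5, 42.5 and 39.8 RPM on day 6, with a log2 difference of 2.18 (limma, adjusted p = 0.0112). Both GK15 libraries of day 6 were above the 3 aRB27 libraries for COL14A1. Secreted guidance proteins were called too: NTN4, a netrin, rose by 1.46 and SEMA3C, a semaphorin, by 1.38 on the log2 scale. With each of the 8 libraries left out in turn NTN4 was called 4 times and SEMA3C 1 time, and among the MS162 libraries they differed by 0.99 and 1.38 and were not called (limma, adjusted p = 0.0927 and 0.179). LCP1, which bundles actin in blood cells, stood at 12.1, 23.7 and 21 RPM on day 4 and 86.8, 90.3, 34.4, 62.9 and 46.4 RPM on day 6, with a log2 difference of 1.68 (limma, adjusted p = 0.0278) that was 1.03 among the MS162 libraries (adjusted p = 0.149). Of the blood markers GATA1 and HBZ were at 0 in all 8 libraries. PTPRC was at 0 in all day 4 libraries and in the GK15 libraries of day 6, but not in all aRB27 libraries of day 6. GSN, which severs actin filaments, rose by 1.76, was called 2 times of 8 with a library left out, and differed by 1.12 among the MS162 libraries (adjusted p = 0.303). ABCG1, a cholesterol exporter, rose by 1.12, KYNU, an enzyme of tryptophan breakdown, by 2.08, and TSPAN7, a tetraspanin of the plasma membrane, by 1.202. Among the MS162 libraries KYNU and TSPAN7 differed by 1.59 and 1.00 (adjusted p = 0.0644 and 0.051). The day 4 and day 6 libraries of KYNU overlapped, since the GK15 library of day 4 stood at 30.2 RPM and aRB27 library 3 of day 6 at 17.0 RPM.

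**Figure D2:**
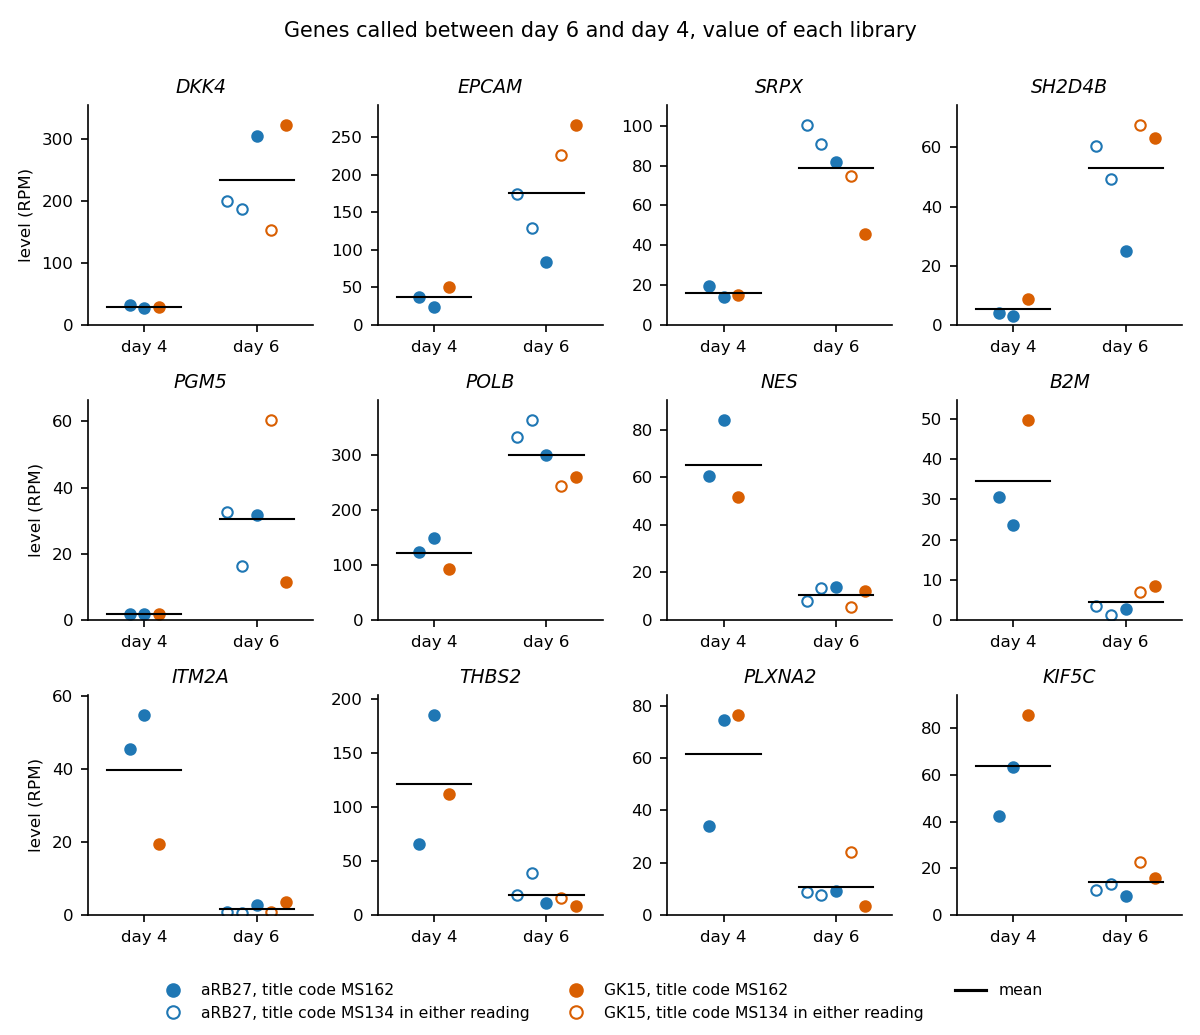
The level of 12 called genes is plotted in RPM on a linear axis from 0, with each circle 1 library (blue aRB27, orange GK15, open where the title code is MS134 in either matching) and the bar the mean of the day. In each panel the 5 day 6 libraries lie wholly above the 3 of day 4 (DKK4, EPCAM, SRPX, SH2D4B, PGM5, POLB) or wholly below them (NES, B2M, ITM2A, THBS2, PLXNA2, KIF5C). Only genes without overlap are plotted, so open and filled circles of day 6 lie on the same side by this choice.

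ITM2A, an integral membrane protein, had the largest fall, -3.91 ± 0.52 on the log2 scale (limma, adjusted p = 0.00535). It stood at 45.5, 54.8 and 19.3 RPM on day 4 and 0.85, 0.59, 2.65, 0.83 and 3.62 RPM on day 6. All day 6 values lay far below all of day 4, of which the GK15 library was the lowest. B2M, the beta-2-microglobulin that MHC class I molecules need at the surface, stood at 30.5, 23.7 and 49.7 RPM on day 4 and 3.39, 1.17, 2.65, 7.08 and 8.44 RPM on day 6. All day 6 values were below all day 4 values, with a log2 difference of -2.90 ± 0.34 (limma, adjusted p = 0.00197). NES, the intermediate filament nestin of neural progenitors, stood at 60.5, 84.1 and 51.7 RPM on day 4 and 8.04, 13.5, 13.9, 5.41 and 12.1 RPM on day 6. Its lowest day 4 library was well above its highest day 6 library, and the log2 difference was -2.53 ± 0.29 (limma, adjusted p = 0.0013).

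THBS2, a matrix glycoprotein of the thrombospondin family, stood at 65.6, 185 and 112 RPM on day 4 and 18.6, 38.7, 11.3, 15.4 and 8.44 RPM on day 6. The fall was seen in every library of day 6, most in GK15 library 3, with a log2 difference of -2.68 ± 0.41 (limma, adjusted p = 0.0112). KIF5C, a kinesin heavy chain, stood at 42.6, 63.5 and 85.7 RPM on day 4 and 10.6, 13.5, 7.94, 22.9 and 15.7 RPM on day 6, with a log2 difference of -2.18 ± 0.24 (limma, adjusted p = 0.0013). PLXNA2, a semaphorin receptor, stood at 33.97, 74.7 and 76.5 RPM on day 4 and 8.89, 7.62, 9.26, 24.2 and 3.62 RPM on day 6. GK15 library 1 was the highest of day 6 for both genes and still below day 4. The log2 difference of PLXNA2 was -2.58 ± 0.46 (limma, adjusted p = 0.0186). SEMA3G, a secreted semaphorin, fell by 2.43 on the log2 scale (limma, adjusted p = 0.0423), from 10.6 to 33.3 RPM on day 4 to 0.59 to 4.63 RPM on day 6, and was not called among the MS162 libraries (-2.06, adjusted p = 0.0971).

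Several transcription factors and signalling genes fell. HES1, a repressor switched on by Notch, stood at 47.2, 55.4 and 48.3 RPM on day 4 and 8.04, 7.62, 17.9, 5 and 16.3 RPM on day 6. The 3 libraries that stood apart gave the lowest values of day 6, but the 2 others were also below day 4. The log2 difference was -2.23 ± 0.36 (limma, adjusted p = 0.0135), and -1.49 among the MS162 libraries (adjusted p = 0.0101). FOXA2, a transcription factor of endoderm, stood at 24.8, 11.2 and 16.8 RPM on day 4 and 1.27, 1.17, 3.97, 1.67 and 3.01 RPM on day 6, with a log2 difference of -2.55 ± 0.49 (limma, adjusted p = 0.0265). Among the MS162 libraries its difference was -1.97 and was not called (adjusted p = 0.0735). The basic helix-loop-helix gene TCF4 fell by 1.88 on the log2 scale, and among the MS162 libraries its adjusted p was 0.0505. PRTG and IGDCC3, immunoglobulin superfamily proteins of the cell surface, fell by 1.87 and 2.11. MAP1B, a microtubule protein, fell by 2.02, with 12.9 to 16.2 RPM in the 3 libraries that stood apart, 41.0 and 41.7 RPM in the other 2 of day 6 and 85.2 to 110.2 RPM on day 4.

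Genes of matrix assembly were called lower as well. MRC2, a receptor that takes up collagen, fell by 2.37, PCOLCE, which helps to process procollagen, by 1.90, and LOXL1, which cross-links elastin, by 1.67 on the log2 scale. PCOLCE was not called among the MS162 libraries (-1.76, limma, adjusted p = 0.096). SERPINH1, the collagen chaperone of the endoplasmic reticulum, was abundant, at 515, 527 and 709 RPM on day 4 and 176, 178, 311, 266 and 381 RPM on day 6. Its groups did not overlap, with the highest day 6 value in GK15 library 3, and the log2 difference was -1.24 ± 0.20 (limma, adjusted p = 0.0135), and -0.81 among the MS162 libraries, under the minimum size. KIRREL (KIRREL1 in RefSeq), an adhesion protein of the immunoglobulin superfamily, fell by 2.30, and SLC39A8, a zinc importer, had a log2 difference of -2.23 (limma, adjusted p = 0.0135). The genes named here beyond the rule given in the methods were chosen after their values were seen, and no test was made of whether a theme among them exceeds chance.

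The genes of the germ cell core did not pass the threshold. For PRDM1 and TFAP2C this is a description alone, since cells of both days were sorted for reporters of these genes. PRDM1 stood at 162.4, 189.9 and 161 RPM on day 4 and 152, 138, 146, 119.5 and 138 RPM on day 6. Every day 6 library was below every day 4 library, with a log2 difference of -0.29 (limma, adjusted p = 0.289). TFAP2C stood at 544, 524 and 704 RPM on day 4 and 617, 502, 386, 717 and 560.0 RPM on day 6, with overlapping groups and a difference of -0.13 (limma, adjusted p = 0.715). SOX17 stood at 859.7, 949.7 and 1037 RPM on day 4 and 626, 597, 714, 831 and 1062 RPM on day 6. On day 6, 4 of the 5 libraries were below all of day 4, while GK15 library 3 was the highest of the 8, and the difference was -0.37 ± 0.15 (limma, adjusted p = 0.213). NANOS3, which binds RNA and is needed for germ cell survival, stood at 23.6, 26.2 and 23 RPM on day 4 and 36.8, 35.8, 44.98, 49.97 and 60.3 RPM on day 6. All day 6 libraries were above all day 4 libraries. The log2 difference of 0.84 ± 0.20 missed both limits (limma, adjusted p = 0.0587).

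Of the genes shared with pluripotent cells, POU5F1 stood at 2477, 2485 and 2703 RPM on day 4 and 3951, 3941, 2470.0, 3383 and 2199.6 RPM on day 6. The 3 libraries that stood apart were the highest and the other 2 of day 6 were below all of day 4. The difference of 0.29 (limma, adjusted p = 0.466) was -0.13 among the MS162 libraries. NANOG stood at 577, 620.2 and 572 RPM on day 4 and 613, 604, 423, 643 and 546 RPM on day 6, a difference of -0.08 (limma, adjusted p = 0.83) with overlapping groups. It became 0.03 with quantile normalization. SOX2, a pluripotency and neural factor that germ cells of primates lack, stood at 9.79, 33.6 and 10.7 RPM on day 4 and 8.89, 12.3, 13.2, 1.67 and 0.60 RPM on day 6. The day 6 values of GK15 were the lowest, those of aRB27 overlapped with day 4, and aRB27 library 2 of day 4 was the highest (log2 -1.31 ± 0.50, limma, adjusted p = 0.187). TFCP2L1, a factor of naive pluripotency also seen in germ cells, stood at 65.1, 77.8 and 34.3 RPM on day 4 and 115, 119, 110.5, 75.4 and 65.7 RPM on day 6. Within each medium day 6 was above day 4, and the difference of 0.80 ± 0.16 passed the adjusted p (limma, 0.0279) but not the minimum size.

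**Figure D3:**
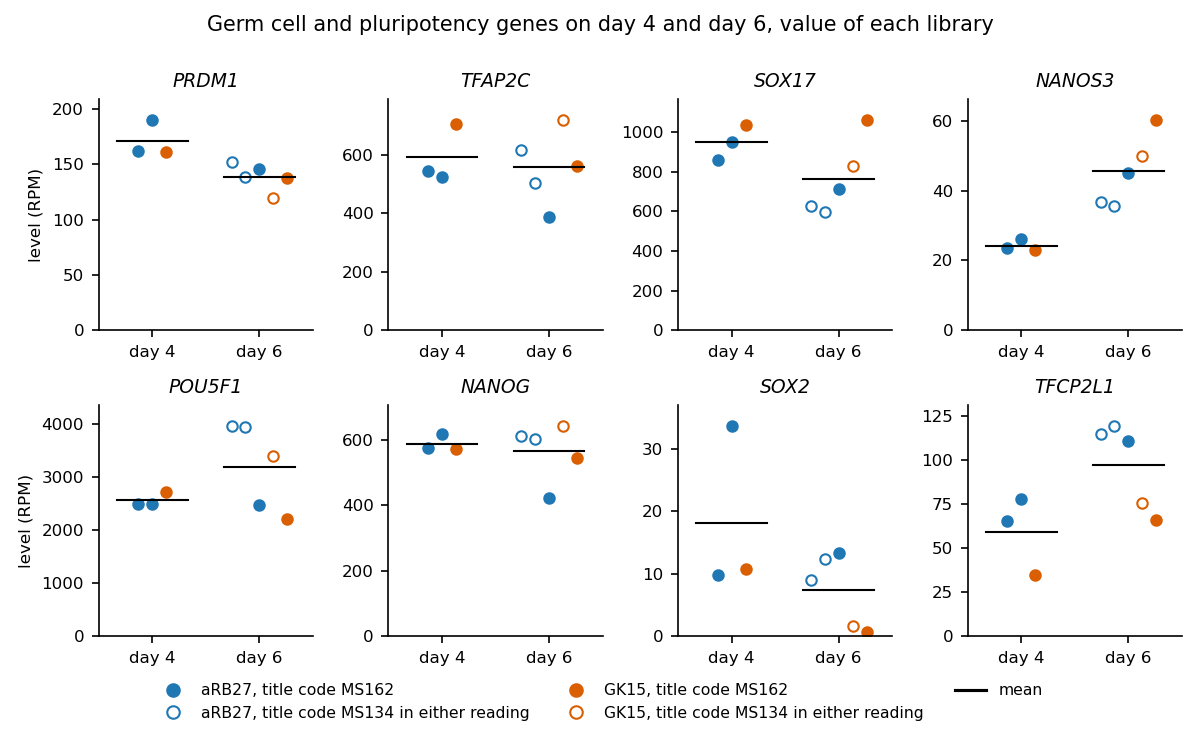
The level of 8 germ cell and pluripotency genes is plotted in RPM on a linear axis from 0, with symbols as for the called genes. None was called: NANOS3 lies higher and PRDM1 lower on day 6 in every library, TFAP2C, SOX17, POU5F1, NANOG, SOX2 and TFCP2L1 overlap between the days, and for POU5F1 the 3 open circles of day 6 lie highest.

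Gene lists of the germ line and of other pathways were then read against all genes, whose median difference was -0.04 and of which 1.17% were called. Of all genes 54.9% were below 0, 18.7% had an unadjusted p under 0.05 with limma, and edgeR called 1.53% and DESeq2 2.94%. Libraries of the days were separate for 4.11% of all genes in the rising and 6.44% in the falling direction. The 29 lists held 627 different genes, of which 377 passed the filter and 8 were called. Of 19 tested genes of the early germ cell list, 0 were called by limma (6 at an unadjusted p under 0.05), with a median of -0.14 and 1 gene separate in each direction, NANOS3 and PRDM1. SOX4 had the largest difference, -1.46 (limma, adjusted p = 0.0885), with overlapping libraries. DESeq2 called SOX4 and edgeR 0 genes of this list. LIN28A, an RNA-binding protein that holds back let-7 microRNAs, stood at 1221, 895 and 1093 RPM on day 4 and 519, 491, 656, 683 and 914 RPM on day 6 (log2 -0.76, limma, adjusted p = 0.0591). Later germ cell and piRNA genes were mostly silent: of 31 in the table, 29 were under the filter and 10 were at 0 in all 8 libraries. PIWIL1 and MEIOB alone were tested, with differences of -0.12 and 0.25 that were not called.

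**Figure D4:**
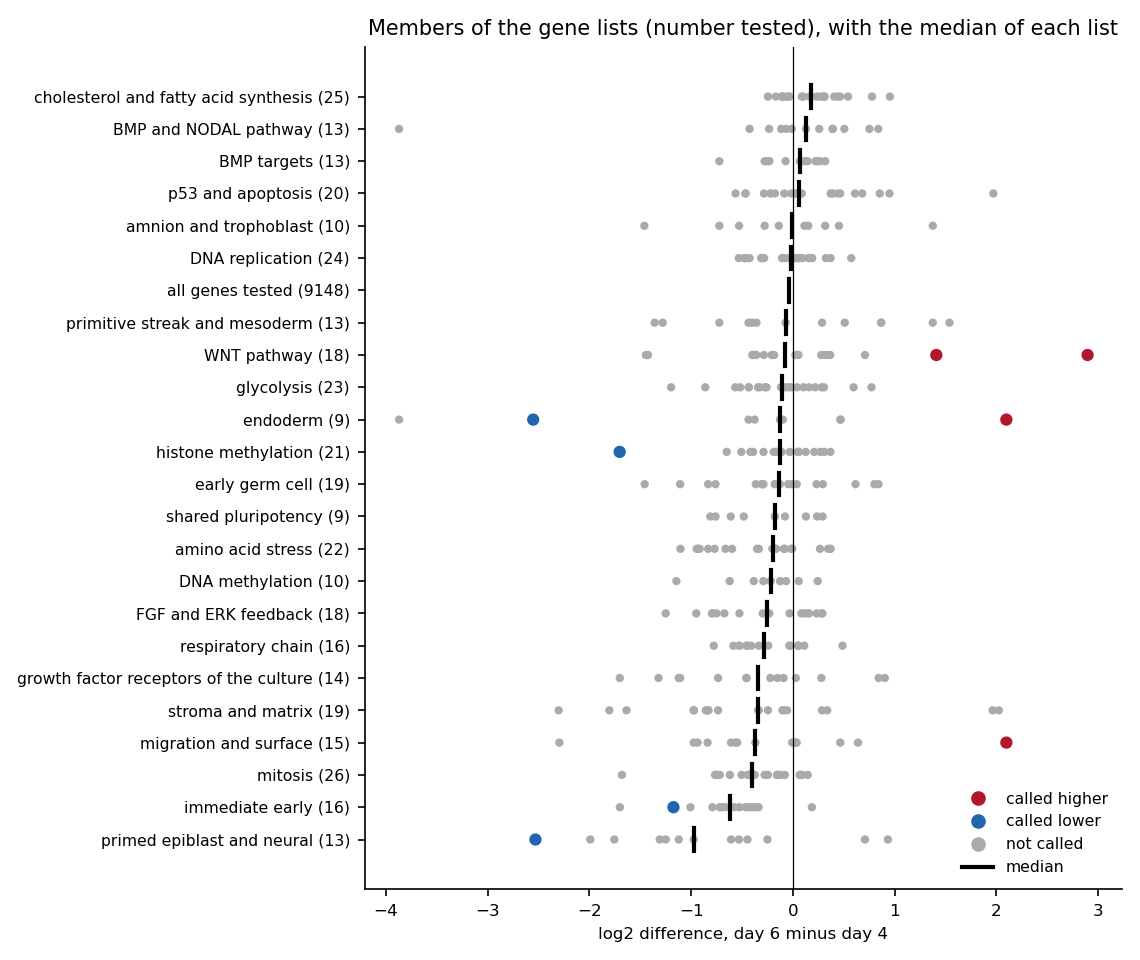
For each list with at least 9 tested members, points give the log2 difference of each member, day 6 minus day 4, and bars the median of the list (number of tested members in brackets), ordered by the median and with all 9148 genes as a line of its own. The medians run from -0.98 (primed epiblast and neural) to 0.18 (cholesterol and fatty acid synthesis) and most members are grey, not called.

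The list of primed epiblast and neural genes had the lowest median of those plotted, -0.98, with 11 of 13 tested members below 0, 11 at an unadjusted p under 0.05 and 1 called by limma and edgeR, NES. DESeq2 called 4, with SOX11, ZIC5 and SALL3 added. Another 2 members showed no overlap in the falling direction or the rising one: ZIC5, a zinc finger factor of neural cells, at 6.91, 20.6 and 16.3 RPM on day 4 and 4.23, 5.86, 5.95, 0.83 and 0 RPM on day 6 (log2 -1.99, limma, adjusted p = 0.119), and SALL3, a spalt-like zinc finger factor, at 35.7, 42.97 and 66.5 RPM on day 4 and 136, 85.01, 69.5, 97.9 and 79.6 RPM on day 6 (log2 0.93, adjusted p = 0.0756). ZIC5 was lower in GK15 than in aRB27 on day 6, while SALL3 was highest in aRB27 library 1. In the primitive streak and mesoderm list 0 of 13 were called by limma or edgeR (4 at an unadjusted p under 0.05) and 1 by DESeq2, CDX4, and the median of -0.07 was 0.00 with quantile normalization. T, the mesoderm factor brachyury that primate PGCLC also express, stood at 514, 377 and 730.5 RPM on day 4 and 781, 585, 617, 1133 and 816 RPM on day 6 (log2 0.51, limma, adjusted p = 0.152). EVX1, a homeobox gene of the posterior streak, differed most, by 1.54 (limma, adjusted p = 0.172), but its day 4 libraries already ranged from 2.30 to 66.7 RPM. CDX4, a caudal-type homeobox gene, differed by -1.28 (limma, adjusted p = 0.0851), with the GK15 libraries of both days above the aRB27 libraries of the same day.

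Of the 9 endoderm genes tested, EPCAM rose and FOXA2 fell. CER1, a secreted inhibitor of NODAL and BMP, stood at 0, 63.5 and 70.2 RPM on day 4 and 0, 0, 1.32, 0 and 0 RPM on day 6. It was listed at 0 in 1 of the 3 day 4 libraries and in 4 of the 5 of day 6, and its difference of -3.87 was not called (limma, adjusted p = 0.132). In the amnion and trophoblast list 0 of 10 were called by limma, edgeR or DESeq2 (3 at an unadjusted p under 0.05), with a median of -0.01 that was above 0 with the other scalings (0.04 with median-of-ratios, 0.03 with quantile normalization). ISL1, a LIM homeobox gene of amnion, was at 12.1, 13.1 and 7.83 RPM on day 4 and 5.500, 7.62, 0.66, 2.500 and 3.01 RPM on day 6, without overlap (log2 -1.46, limma, adjusted p = 0.186). Of 32 HOX genes 28 were under the filter. Of the 19 stroma and matrix genes tested, 15 were below 0 and 0 were called by limma or edgeR (9 at an unadjusted p under 0.05), with a median of -0.34. DESeq2 called 1, DCN. TPM2, a tropomyosin, passed the adjusted p (limma, 0.0405) at a difference of -0.86 without overlap. FN1, the matrix protein fibronectin, stood at 36.3, 113 and 111 RPM on day 4 and 35.1, 50.4, 4.63, 12.1 and 5.43 RPM on day 6, a difference of -2.30 that was not called (limma, adjusted p = 0.104). The highest day 6 values were in aRB27 libraries 1 and 3, near the lowest of day 4, and among the MS162 libraries FN1 differed by -3.785 (adjusted p = 0.000375). DCN, the matrix proteoglycan decorin, differed the other way, at 1.15, 0.62 and 5.83 RPM on day 4 and 16.1, 11.1, 6.61, 15.4 and 9.04 RPM on day 6 (log2 2.02, adjusted p = 0.0606). CDH5, a cadherin of endothelium, stood at 23.6, 12.5 and 8 RPM on day 4 and 1.27, 1.17, 2.65, 1.25 and 4.22 RPM on day 6, a separate difference of -2.30 that limma did not call (adjusted p = 0.0606) and that edgeR and DESeq2 called. Of the marker sums given above, that of endoderm was lower in every day 6 library than on day 4. Those of stroma and of blood and endothelium overlapped. FOXA2 is itself among the summed endoderm markers, with 11.2 to 24.8 RPM on day 4 in sums of 26.8 to 39.2 RPM. CDH5 is among the summed markers of blood and endothelium, so these sums are not independent of FOXA2 and CDH5. The part of other cells in FOXA2, FN1 and CDH5 was not tested.

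Among signalling lists, 0 of 13 targets of BMP, the factor that drives induction, were called by limma, edgeR or DESeq2, and 0 had an unadjusted p under 0.05 with limma. Their differences ran from -0.72 (HAND1) to 0.32 (GATA2), and the median was 0.07. ID1, the classic BMP target, stood at 319.6, 258 and 248 RPM on day 4 and 207, 223, 155, 318 and 319 RPM on day 6, with overlapping groups. In the BMP and NODAL list 0 of 13 were called by limma or DESeq2 (3 at an unadjusted p under 0.05, median 0.13) and 1 by edgeR, CER1. The receptor gene ACVR1B was separate between the days, at 51.8, 60.4 and 53.5 RPM on day 4 and 80.4, 73.9, 79.4, 64.96 and 62.7 RPM on day 6 (log2 0.39, limma, adjusted p = 0.201). In the WNT list 2 of 18 rose, DKK4 and the receptor gene FZD1, and the median was -0.08. FZD1 stood at 29.9, 13.1 and 78.7 RPM on day 4 and 57.97, 41.6, 79.4, 163 and 221 RPM on day 6. Its GK15 libraries were above the aRB27 libraries on each day, so the days overlapped when the media were pooled, and with the medium as a term the log2 difference was 1.41 ± 0.27 (limma, adjusted p = 0.0266). AXIN2, a WNT target, stood at 27.6, 34.3 and 68.3 RPM on day 4 and 64.7, 43.4, 41.01, 44.97 and 69.9 RPM on day 6, with overlapping groups (log2 0.31, limma, adjusted p = 0.521). CTNNB1 had the lowest value of the list, -1.45 (limma, adjusted p = 0.171), and its low values were in the 3 libraries that stood apart.

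For the growth factors added to the culture, 0 of 14 receptor and response genes were called by limma or edgeR (6 at an unadjusted p under 0.05, median -0.34) and 1 by DESeq2, PIM1. KITLG, the gene of the SCF ligand itself, stood at 102.5, 175 and 106 RPM on day 4 and 341, 268, 237, 153 and 178 RPM on day 6 and passed the adjusted p (limma, 0.0496) at a difference of 0.90. KIT, the SCF receptor, stood at 166, 148 and 214 RPM on day 4 and 427, 407, 160.1, 437 and 263 RPM on day 6. Its aRB27 library 4 of day 6 lay within the day 4 range, and the difference of 0.84 was not called (limma, adjusted p = 0.161). In the FGF and ERK list 0 of 18 were called by limma, edgeR or DESeq2 (4 at an unadjusted p under 0.05, median -0.25). The receptor gene FGFR1 was separate, at 59.9, 64.8 and 60.5 RPM on day 4 and 38.1, 41.04, 29.8, 23.3 and 25.9 RPM on day 6 (log2 -0.95, limma, adjusted p = 0.0296), under the minimum size. In the immediate early list 15 of 16 were below 0 with a median of -0.62, and 1 fell, IER2, at 79.5, 118 and 194 RPM on day 4 and 35.6, 41.04, 58.2, 62.1 and 104 RPM on day 6. IER2 was highest in GK15 on both days, so the days overlapped when pooled (log2 -1.17 ± 0.23, limma, adjusted p = 0.0265), and among the MS162 libraries its difference was -0.80 (adjusted p = 0.096).

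In the migration and surface list of 15 tested genes EPCAM rose and the median was -0.37. ITGA6, an integrin used with EPCAM to sort PGCLC, stood at 215, 296 and 167 RPM on day 4 and 384, 463, 339, 219 and 314 RPM on day 6. Within each medium day 6 was higher, but the difference of 0.64 was not called (limma, adjusted p = 0.0885). Its partner ITGB1 stood at 336, 351 and 384 RPM on day 4 and 239.9, 223, 233, 244 and 278 RPM on day 6, separate and lower (log2 -0.56, limma, adjusted p = 0.0572), but not called. CXCR4, the receptor that guides migrating germ cells, stood at 217, 158 and 75.7 RPM on day 4 and 167, 174, 225, 179 and 189 RPM on day 6, with overlapping groups.

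In the DNA methylation list 0 of 10 were called by limma, edgeR or DESeq2 (2 at an unadjusted p under 0.05), with 8 below 0 and a median of -0.22. DNMT1, the maintenance methyltransferase, stood at 143, 114 and 162.3 RPM on day 4 and 116, 145, 160.1, 154 and 156 RPM on day 6 and its partner UHRF1 at 27.1, 33.6 and 32 RPM on day 4 and 8.04, 7.62, 29.8, 10.8 and 21.7 RPM on day 6. The difference was 0.06 for DNMT1 and -1.15 for UHRF1, neither called (limma, adjusted p = 0.881 and 0.162), and the low values of UHRF1 were in the 3 libraries that stood apart. In the histone methylation list 1 of 21 fell, EHMT2, the methyltransferase G9a, and the median was -0.13. EHMT2 stood at 16.7, 23.7 and 17.8 RPM on day 4 and 4.23, 3.52, 4.63, 7.08 and 8.44 RPM on day 6. The groups did not overlap, with a log2 difference of -1.70 ± 0.33 (limma, adjusted p = 0.0277). Among the MS162 libraries it was -1.51 and was not called (adjusted p = 0.102). Its partner EHMT1 stood at 65.6, 63.5 and 54.2 RPM on day 4 and 53.7, 57.5, 65.5, 54.6 and 42.2 RPM on day 6, with overlapping groups. In the MHC class I list 1 of 6 tested genes fell, B2M, and 9 of the 15 members were under the filter, 5 of them at 0 in all 8 libraries.

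Of 26 mitosis genes 22 were below 0, with a median of -0.40, and 9 had all day 6 libraries below all of day 4 (6.44% of all genes did). By limma, edgeR or DESeq2 0 were called, with 13 at an unadjusted p under 0.05. Their summed level was 3192, 3028 and 3329 RPM on day 4 and 2452, 2379, 2375, 2634 and 2931 RPM on day 6. The days did not overlap, and GK15 library 3 of day 6 came nearest to day 4. BIRC5, the chromosome passenger protein survivin, stood at 109, 116 and 122 RPM on day 4 and 53.7, 60.97, 72.8, 69.1 and 90.4 RPM on day 6, a difference of -0.77 that passed the adjusted p (limma, 0.049) but not the minimum size. MKI67, the proliferation marker, stood at 113, 94.03 and 117 RPM on day 4 and 52.5, 55.7, 72.1, 66.2 and 88.6 RPM on day 6 (log2 -0.72, limma, adjusted p = 0.0641) and the kinase PLK1 at 135, 97.2 and 131 RPM on day 4 and 62.2, 56.3, 70.8, 79.5 and 96.5 RPM on day 6 (log2 -0.76, adjusted p = 0.0548). The largest difference of the list, that of the spindle protein TPX2 (-1.68, limma, adjusted p = 0.156), lay in the 3 libraries that stood apart, at 8.89 to 14.1 RPM against 54.3 to 89.1 RPM elsewhere. DNA replication genes were divided: 11 of 24 were above 0 and 13 below, 0 called by limma, edgeR or DESeq2 (6 at an unadjusted p under 0.05), with a median of -0.015 that was 0.03 with either other scaling, and their summed levels overlapped.

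The change between the days was compared between the media with an interaction term. At the adjusted threshold limma called 0 of 9148 genes (0.0%), with 136 at an unadjusted p under 0.05, and edgeR on the reads recovered from the RPM also called 0, with 183. Day 4 had 1 GK15 library, whose spread was assumed to be that of the other groups. DKK4 went from 26.8 to 32.2 RPM to 187 to 306 RPM in aRB27 and from 29.2 RPM to 153 to 323 RPM in GK15. NES went from 60.5 to 84.1 RPM to 8.04 to 13.9 RPM in aRB27 and from 51.7 RPM to 5.41 to 12.1 RPM in GK15. Both were chosen as called genes without overlap between the days. That choice fixes the same direction in each medium, so these values are a description. With aRB27 alone 8 genes rose and 7 fell, and with GK15 alone, 2 libraries against 1, limma called 0 (434 at an unadjusted p under 0.05).

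Libraries of other days, which took no part in the test, place the 2 days in the course of induction. They were 4 stem cell libraries, 3 labelled as line 656BTAG42 and 1 as 656BTAG63, 3 libraries of day 2, and 2 each of days 8 and 10, the later ones in GK15 only, and 6 libraries whose group depends on the matching of names were left out of these averages together with the 3 named above. Of the 52 rising genes all 52 had a higher mean on days 8 and 10 than on day 4, 24 were higher still than on day 6, and 48 were above stem cells on day 6. Of the 55 falling genes 52 were below day 4 on days 8 and 10 and 24 below day 6. These comparisons use the day 4 and day 6 libraries of the test again, so the counts are no independent support. The mean of day 4 was above that of day 2 for 37 of the 52 and below it for 41 of the 55. The same shares over all genes tested were not computed, so none of these counts has a baseline.

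DKK4 averaged 12.4 ± 14.5 RPM (SD) in stem cells and 8.78 ± 7.95 on day 2, and after the 29.4 RPM of day 4 and 234 RPM of day 6 it stood at 88.2 to 395 RPM on days 8 and 10. EPCAM was nearly level until day 4, with means of 38.9, 40.04 and 37.4 RPM, and stood at 176 RPM on day 6 and 189 to 344 RPM later. For both genes the step between days 4 and 6 was the largest of the course. SRPX reached 78.8 RPM on day 6 and averaged 68.4 RPM on day 8 and 40.4 RPM on day 10. NANOS3 was listed at 0 in all stem cell libraries and its means were 16.4, 24.3, 45.6, 63.5 and 87.9 RPM from day 2 to day 10. COL2A1 was at 3.35 RPM in stem cells, 53.2 on day 2, 306 on day 4 and 713 on day 6, and 592 to 674 RPM later.

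B2M was already low by day 4, with means of 1454 RPM in stem cells, 389 on day 2, 34.6 on day 4 and 4.55 on day 6, and 0.93 to 7.54 RPM later. NES went from 316 through 212 and 65.4 to 10.6 RPM, and EHMT2 from 73.1 through 35.2 and 19.4 to 5.58 RPM. For these 3 genes the mean was lower at each step up to day 6. THBS2 had its highest mean on day 2, 269 ± 85.4 RPM (SD), and ITM2A on day 4. For other genes the later levels lay above day 6. SEMA3G stood at 18.5 RPM on day 4, 2.53 on day 6 and 7.43 to 38.5 RPM on days 8 and 10, and HES1 at 50.3, 10.96 and 26.3 to 45.3 RPM. CKB, the brain-type creatine kinase, stood at 240.0 and 93.4 RPM on days 4 and 6 and 133 to 229.8 RPM later.

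**Figure D5:**
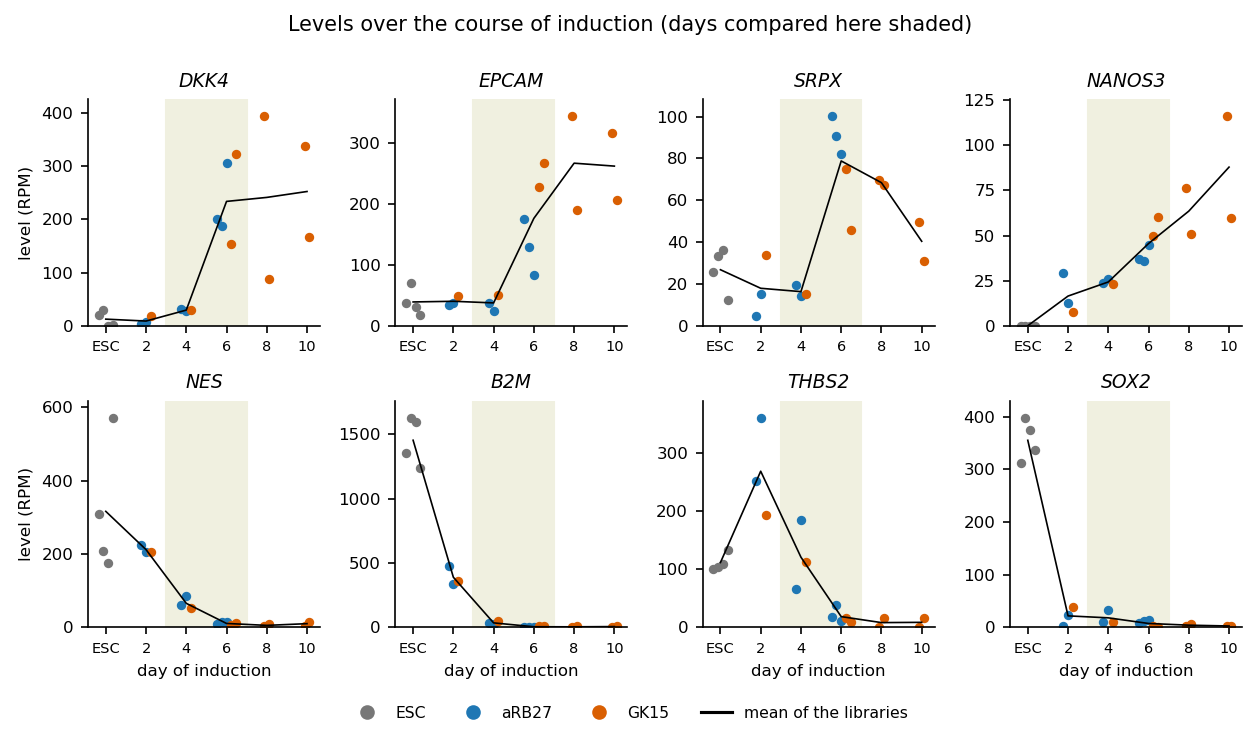
The level of 8 genes is plotted in RPM on a linear axis against the day of induction (ESC, stem cells), with each point 1 library (grey ESC, blue aRB27, orange GK15), the line through the means and days 4 and 6 shaded. DKK4, EPCAM and SRPX step up between days 4 and 6, NANOS3 climbs from day 2 to day 10, and NES, B2M and THBS2 have lower means on day 4 than on day 2, with days 8 and 10 in GK15 only.

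Mouse PGCLC of line R8, which carries Blimp1-membraneVenus and Dppa3-ECFP reporters and was induced in GK15 with the same factors, gave 2 libraries of day 4 and 2 of day 6 in a separately normalized table, which were compared with the same test. Of 8258 genes 214 were called (2.59%): 99 rose (1.2%) and 115 fell (1.39%). The count was 62 without day 4 library 1 and 0 without either day 6 library. Of 6179 genes tested in both species, 15 rose in monkey and 39 in mouse, and 2 were shared, LCP1 and SORL1 (13.3% of the monkey and 5.13% of the mouse genes). Of those that fell there were 26 in monkey and 67 in mouse, with 5 shared (19.2% and 7.46%), among them B2M, MAP1B, PRTG and TUBB6. Of the monkey genes tested in both, 8 of the 15 that rose and 20 of the 26 that fell had the same sign in mouse, and none was called in the opposite direction. The share of each sign in mouse over all 6179 genes was not computed, so the counts of sign have no baseline. With only 39 and 67 mouse calls among 6179 genes, the lack of opposite calls is a description alone. Mouse B2m stood at 22.5 and 18.1 RPM on day 4 and 5.88 and 7.26 RPM on day 6 (log2 -1.49, limma, adjusted p = 0.0265), Lcp1 at 23.9 and 49.5 RPM on day 4 and 129.7 and 134 RPM on day 6 (1.91, adjusted p = 0.00456) and Map1b at 67.1 and 70.7 RPM on day 4 and 18.1 and 19.8 RPM on day 6 (-1.81, adjusted p = 0.000701). In these 3 genes the mouse libraries of the days did not overlap, but the genes were chosen as called in both species. The share of all mouse genes without overlap was not computed, so this has no baseline. Other leading genes of monkey were not called or not tested in mouse. Epcam stood at 181 and 146 RPM on day 4 and 147 and 157 RPM on day 6 in mouse (limma, adjusted p = 0.762) and Polb at 37.98 and 40.7 RPM on day 4 and 37.8 and 35.5 RPM on day 6 (adjusted p = 0.829), while Srpx and Thbs2 were at 0 in all 4 libraries and Dkk4, Nes, Pgm5 and Sh2d4b were under the filter. Mouse Tfcp2l1 stood at 51.2 and 57.9 RPM on day 4 and 99.1 and 90 RPM on day 6, a difference of 0.78 against 0.80 in monkey, under the minimum size in both. Whether the change of a gene differs between the species was not tested.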

How the data were processed

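Bulk 3′ RNA-seq was run on sorted cells, and 1 table per species was deposited in RPM, reads scaled to the library total by the authors, a unit that the tables' titles give. The submitters' processing notes name TopHat 1.4.1, cutadapt 1.3, Cufflinks 2.2.0 and, for mouse, GRCm38, without role. The build used for monkey is stated neither in these notes nor in the labels, so the text has no coordinates. Of 26018 monkey entries 9295 carry LOC names. Genes that share reads with a close copy are uncertain, since the counting is not described in the labels.

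Values were matched to libraries by column name. Read in alphabetical order instead, the names would move 9 libraries to another group, none of the 8 used, and would give some of the 8 another title, 2 of them another line. Low values were whole multiples of 1 read for 99.5% to 99.7% of values (tolerance 0.1 reads), so reads were recovered for edgeR and DESeq2. Among 28 pairs of libraries none was identical (r of 0.884 to 0.967).

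The main test was limma 3.58.1 (R 4.3.3, intensity trend) on log2(RPM + 1) with day and medium as terms, over genes reaching 10 RPM in 2 or more libraries. The pseudocount of 1 understates the change of low genes. Calls needed a Benjamini-Hochberg adjusted p under 0.05 and a log2 difference of at least 1. In simulated data of this design and 8920 genes, limma recovered 192 of 200 changed genes with 4 false calls (88.1%, 100% and 100% at log2 1.5, 2.5 and 4). The simulated libraries were independent, without a medium effect, a group standing apart or changes near the limit of 1. The recovery therefore does not measure how firm the calls are. Without the GK15 library of day 4, 14 of the 107 were still called. The rule for named genes was: NANOG, POU5F1, SOX2, NANOS3, SOX17, PRDM1 and TFAP2C; up to 3 called members of each list, or the 1 with the largest difference where none was called; and the 10 largest rises and 10 largest falls without overlap and without LOC entries. The libraries, genes and lists were chosen with earlier results of these data known. Alternatives were other scalings, all genes unfiltered or only those averaging 20 RPM, pseudocounts of 10 and 0.1, a robust prior, other thresholds, edgeR 4.0.16 (quasi-likelihood), DESeq2 1.42.0, other sets of libraries, and each library left out. The 2 splits by title code were chosen after seeing the data. Of the 107 called IDs 102 matched the RefSeq gene table, used for names alone. Some called genes are not reported here by name. Depth was too low to say that genes of a few reads are absent.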

Additional observations from a re-analysis of the deposited data

Results flagged for a closer look

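In groups of 4 to 10 samples, a value was picked out when its gap to the nearest other exceeded Dixon's limit within the 5 day 6 libraries, which chance does in about 1 of 20 groups. Of 56 groups of values checked, 6 were picked out. HAND1, a mesoderm and amnion factor, stood at 65.7 RPM in aRB27 library 3 of day 6 against 16.3 to 29.2 RPM in the others, close to the 62.9 RPM of aRB27 library 2 of day 4. DUSP6, a feedback inhibitor of ERK, stood at 17.5 RPM in GK15 library 3 against 0.42 to 5 RPM. CER1 stood at 1.32 RPM in aRB27 library 4, which is 2 reads, against 0 in the others. DPEP2 stood at 16.5 RPM in aRB27 library 4 against 8.89 to 10.55 RPM. PLXNA2 stood at 24.2 RPM in GK15 library 1 against 3.62 to 9.26 RPM, and KIRREL at 13.9 RPM in GK15 library 3 against 3.33 to 5.92 RPM. For DPEP2, PLXNA2 and KIRREL the library picked out was still on the called side of every day 4 library.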

How the results depend on the processing

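Against 52 rises and 55 falls, counts of rises and falls were 30 and 37 with a pseudocount of 10, 30 and 38 without a filter, 30 and 30 with a mean of at least 20 RPM, 14 and 15 at a log2 difference of at least 2, and 154 and 115 with DESeq2 on recovered reads (edgeR: 74 and 66). They were 35 and 28 without the medium term, 6 and 10 with the libraries titled MS162 alone, 8 and 7 with aRB27 alone, and by limma 0 and 0 with GK15 alone (434 at an unadjusted p under 0.05) and with the 3 doubtful libraries as labelled (858). In the splits by title code they were 26 and 62 (MS162 in both matchings) and 185 and 379 (MS134 on day 6). Leaving out each library gave 8 to 127 rises and 7 to 209 falls, the low ends without GK15 day 4 library 1 and aRB27 day 4 library 2 and the high ends without aRB27 day 6 library 4. Runs of title numbers as a replicate block gave 6 and 7, and their deviations from the day means correlated at 0.365, -0.131 and 0.0999. The first of these runs was the only one in GK15 and the day means pooled the media. These values therefore cannot decide whether the numbers pair the libraries. edgeR and DESeq2 each kept 105 of the 107 calls. The interaction with medium called 52 genes without a filter. The mouse count of 214 was 0 without a filter, 94 with a pseudocount of 10, and 0 to 195 with a library left out. Among 53 named genes, 1086 values in alternatives kept direction and call, 176 lost the call, 34 gained it and 12 changed sign, all of genes not called. With the doubtful libraries as labelled PRDM1 was 0.44, SOX17 0.45, NANOG 1.81 and SOX2 0.20. NANOG was also 0.029 with quantile normalization, 0.052 with GK15 alone, 0.073 with MS134 on day 6, where TFAP2C was 0.049. With 1 library left out NANOG ran from -0.15 to 0.036 and MEIOB from -0.088 to 0.774, the sign changing without aRB27 day 6 library 4 for NANOG and without aRB27 day 4 library 1 for MEIOB. MEIOB was -0.117 with MS162 in both matchings, where POU5F1 was -0.13. The causes were not tested.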

Other observations

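CKB, the brain-type creatine kinase, stood at 202, 247 and 271 RPM on day 4 and 83.8, 96.7, 89.3, 88.3 and 109 RPM on day 6 (log2 -1.36 ± 0.15, limma, adjusted p = 0.0013), and SLC6A8, the creatine transporter, at 127, 86.6 and 92.5 RPM on day 4 and 36.8, 41.6, 60.9, 49.6 and 66.3 RPM on day 6 (log2 -1.007, adjusted p = 0.049). Neither gene had overlapping groups. SLC6A8 was called 2 times of 8 with a library left out and differed by -0.645 among the libraries coded MS162 in both matchings (adjusted p = 0.205). PPP3CA, a catalytic subunit of the phosphatase calcineurin, stood at 35.7, 49.8 and 55.5 RPM on day 4 and 24.1, 14.7, 25.8, 25.4 and 26.5 RPM on day 6 and was called lower (limma, adjusted p = 0.0496), though not among those libraries (-0.84, adjusted p = 0.148). PHF10, a subunit of a SWI/SNF-type chromatin remodeller, stood at 132, 153 and 169.5 RPM on day 4 and 66.9, 69.2, 80.7, 74.1 and 67.5 RPM on day 6 (log2 -1.07, adjusted p = 0.00785), separate between the days. These genes were chosen after their values were seen.

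Of the metabolic lists, 0 of 25 genes of cholesterol and fatty acid synthesis were called by limma (3 at an unadjusted p under 0.05). Of these, 17 were above 0, with a median of 0.18, and 4 were separate in the rising direction (4.11% of all genes were). INSIG1, which holds back sterol synthesis, stood at 32.8, 27.4 and 22 RPM on day 4 and 66.9, 58.04, 44.98, 42.5 and 54.3 RPM on day 6 and passed the adjusted p (0.0328) at a log2 difference of 0.95, and edgeR and DESeq2 called it. TM7SF2, a sterol reductase outside the list, rose by 1.17 (adjusted p = 0.026), with 1.03 among the libraries coded MS162 in both matchings (adjusted p = 0.146). Glycolysis had 0 of 23 called by limma, edgeR or DESeq2 (3 at an unadjusted p under 0.05), with a median of -0.11 that was 0.00 with quantile normalization. The respiratory chain had 0 of 16 called by any of these (5 at an unadjusted p under 0.05, median -0.29). The amino acid stress list had 0 of 22 called by limma or edgeR (7 at an unadjusted p under 0.05) and SHMT2 by DESeq2, with 19 below 0 and a median of -0.19. In the last list PHGDH, the entry enzyme of serine synthesis, stood at 160.1, 114 and 150 RPM on day 4 and 60.1, 67.4, 80.04, 76.2 and 87.4 RPM on day 6, separate between the days, and passed the adjusted p (0.0215) at -0.93. In the p53 and apoptosis list 0 of 20 were called by limma or edgeR (5 at an unadjusted p under 0.05, median 0.06). BCL2L14, a BCL2 family member, differed most, by 1.97 (adjusted p = 0.0932), with 1 day 4 library at 6.23 RPM and the others under 1 RPM, and DESeq2 called it.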
